A study of Homo sapiens and Mus musculus with 74 samples.

Results

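The nuclear-encoded subunits of respiratory complex III, respiratory complex IV and the mitochondrial ATP synthase were described across 30 mouse libraries. The members were all protein-coding genes of GENCODE M21 whose symbol begins with Uqcr, with Cox followed by a digit from 4 to 8, or with Atp5, each taken by the transcript that encodes its longest protein. The rule found 44 genes with 43 symbols among the 21908 protein-coding genes that have a transcript in the deposited table, because a readthrough gene carries the symbol Atp5o alongside the usual Atp5o gene. Wild-type (WT) mice and Rpl41 knockout (KO) mice, in which CRISPR-Cas9 had removed the whole coding sequence of the ribosomal protein gene Rpl41, were compared. All were C57BL/6J males aged 10 weeks with no treatment, and both genotypes contributed kidney and brain. RNA-seq, which reads mRNA, and Ribo-seq, which reads the footprint protected by a single ribosome, were made from both tissues. Disome-seq, which reads the longer footprint of a pair of stacked ribosomes, was made from kidney only. Every genotype, tissue and assay had 3 libraries, and the p-values below measure the spread between these labelled replicates. Both tissues are bulk samples, so fewer cells of a type and less RNA per cell cannot be told apart.

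Complex III passes electrons from ubiquinol to cytochrome c, complex IV passes them from cytochrome c to oxygen, and both pump protons across the inner mitochondrial membrane. The ATP synthase lets the protons return through its membrane-bound c ring, and the turning of the ring drives ATP synthesis in the F1 head. These complexes combine many short nuclear-encoded proteins with a few encoded by mitochondrial DNA, and several complex IV subunits have another gene used mainly in muscle, lung, nerve cells or testis.

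Of the 44 genes, 8 encode complex III subunits, 18 complex IV subunits, 5 the F1 head, 3 the c ring and 8 the peripheral stalk and membrane part of the ATP synthase. The other 2 are Atp5s, an ATP synthase-associated factor, and the Atp5o readthrough gene, which shares exons with Atp5o and with Donson. The transcripts of 9 members, Atp5f1, Atp5j, Atp5l, Atp5o, its readthrough gene, Cox4i1, Cox5a, Cox6a2 and Uqcrc2, overlap exons of another gene over more than 10% of their length, and reads there could belong to either gene. Only the Atp5o readthrough gene and Atp5o overlap a gene on the same strand to that extent.

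Levels are given as CPM, counts scaled by the total of the library in the usual way, and comparisons between genes as CPM per kilobase of transcript for RNA-seq and per kilobase of coding sequence for footprints. Column totals were 84433838 to 123745890 in brain RNA-seq, 44998381 to 55077048 for RNA from kidney, 11036643 to 42452425 in kidney Ribo-seq, 9498663 to 35881929 in brain Ribo-seq and 1187636 to 3018963 in disome-seq. The 9 kidney markers summed to 13296 to 16845 CPM in WT kidney RNA-seq and to 3.15 to 3.24 CPM in WT brain RNA-seq, and the 9 brain markers to 3447 to 3570 CPM in WT brain RNA-seq and 2.07 to 4.12 CPM in WT kidney RNA-seq. KO libraries held 0 to 12 counts of Rpl41, against 3695 to 12199 in WT RNA-seq and 37 to 154 in WT footprint libraries. KO kidney RNA-seq replicates 2 and 3 stood apart, with 1.76% and 1.67% of counts on mitochondrial ribosomal RNA against 0.436% to 0.962% in the other 4 kidney RNA-seq libraries. KO kidney Ribo-seq replicates 2 and 3 were deeper than all other kidney Ribo-seq libraries. The members took 0.422% and 0.423% of all counts in those deep libraries, against 0.502% in KO replicate 1 and 0.462% to 0.544% in WT.

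The coding sequences of 4 members are printed because the results turn on them. Atp5e encodes the epsilon subunit of the F1 head and had the lowest KO-to-WT estimate in kidney Ribo-seq, which did not pass the test. Cox7c encodes complex IV subunit 7c, and few kidney RNA-seq counts were assigned to its transcript. Cox6a2 and Cox7a1, the heart and muscle forms of their complex IV subunits, had the lowest and the highest kidney-to-brain estimates in WT footprints. Cox6a2 entered that test through its brain counts alone, so that its call is no support for a difference. Sequences are from the GENCODE M21 transcripts on GRCm38, 5′ to 3′ without the stop codon, and capitals mark bases lying in 50-base windows that also occur elsewhere in the GRCm38.p6 genome. The genes lie at chr2:174461072-174464105 (Atp5e, minus strand), chr13:86044816-86046904 (Cox7c, minus strand), chr7:128205435-128206387 (Cox6a2, minus strand) and chr7:30184144-30186078 (Cox7a1, plus strand).
Atp5e: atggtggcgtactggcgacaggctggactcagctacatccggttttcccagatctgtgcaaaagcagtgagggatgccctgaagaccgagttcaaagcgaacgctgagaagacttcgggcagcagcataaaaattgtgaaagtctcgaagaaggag
Cox7c: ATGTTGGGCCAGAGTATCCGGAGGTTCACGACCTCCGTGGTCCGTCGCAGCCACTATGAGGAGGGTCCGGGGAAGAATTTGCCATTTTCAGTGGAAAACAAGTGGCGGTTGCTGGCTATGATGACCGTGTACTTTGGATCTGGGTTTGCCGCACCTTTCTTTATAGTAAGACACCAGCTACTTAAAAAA
Cox6a2: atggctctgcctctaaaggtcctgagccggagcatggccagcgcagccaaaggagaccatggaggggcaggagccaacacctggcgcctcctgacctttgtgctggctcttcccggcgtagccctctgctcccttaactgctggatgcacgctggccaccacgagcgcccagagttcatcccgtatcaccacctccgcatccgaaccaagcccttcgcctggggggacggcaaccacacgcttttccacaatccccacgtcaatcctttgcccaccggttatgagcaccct
Cox7a1: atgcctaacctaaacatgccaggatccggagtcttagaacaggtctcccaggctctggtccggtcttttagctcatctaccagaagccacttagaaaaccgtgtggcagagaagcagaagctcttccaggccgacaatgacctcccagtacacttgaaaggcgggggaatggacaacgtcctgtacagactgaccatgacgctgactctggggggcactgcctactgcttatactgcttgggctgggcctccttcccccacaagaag
Every base of the Cox7c coding sequence lay in such windows, and none of Atp5e, Cox6a2 or Cox7a1 did. Among the 44 transcripts 18 held no repeated 50-base window, and 6 were repeated over at least 50% of their windows (Atp5g2, Atp5l, Cox7c, Atp5h, Uqcrb and Cox7a2l). A read from such a stretch can be placed on the gene or on its copies, and what kind of sequence the copies are was not examined.

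The kidney RNA-seq libraries differed from all other libraries in their counts on processed pseudogenes. Processed pseudogenes took 0.072% to 0.094% of the counts in kidney RNA-seq and 3.67% to 5.95% in the other libraries. Cox7c mRNA stood at 4.06, 3.28 and 3.56 CPM in the WT kidney libraries while its footprints in the same tissue stood at 69.4, 75.2 and 86.3 CPM. Brain RNA-seq gave 79.3, 81.4 and 55.9 CPM. Atp5l, subunit g of the membrane part, stood at 2.52, 2.73 and 1.73 CPM in WT kidney RNA-seq against 66.6, 71.1 and 78.5 CPM in kidney footprints. Atp5g2, a c-ring gene repeated over its whole transcript, stood at 0.186, 0.429 and 0.156 CPM against 56.9, 46.6 and 60.7 CPM. Each of these mRNAs was below its footprints in every WT kidney library. The mitochondrial partner subunits differed in the same libraries. mt-Atp6, a membrane subunit of the ATP synthase, had 4, 20 and 3 counts in WT kidney RNA-seq and 741388, 716478 and 438378 in WT brain RNA-seq. mt-Cytb, the complex III cytochrome b, stood at a mean of 14122 CPM in WT kidney RNA-seq and 5075 CPM in WT brain RNA-seq. The part that read placement has in these values was not tested, and kidney mRNA levels of the repeated members are given below only beside this limit.

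Per kilobase of coding sequence, the most heavily occupied members in WT kidney Ribo-seq were Cox6c (631 ± 93.1 CPM per kb, SD, n = 3), Atp5g3 (595 ± 71.2) and Atp5e (504 ± 62.9). Cox6c is a short complex IV subunit and Atp5g3 a c-ring gene, and the neighbouring means in this order differed by less than the sum of their SDs. In WT brain Ribo-seq Cox6c (405 ± 67.7) again stood first, followed by Cox7c (294 ± 56.0) and Atp5e (287 ± 49.9), of which the last pair differed by less than their SD. In kidney disome-seq the order was Atp5g3 (893 ± 60.8), Cox7b (793 ± 27.3) and Atp5e (772 ± 51.8). The lowest were the tissue-restricted isoforms. Cox7b2, Cox8c and Cox6a2 were last in WT kidney Ribo-seq, Cox7b2, Cox4i2 and Cox8b in WT brain Ribo-seq.

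Per kilobase of transcript, the highest members in WT kidney RNA-seq were Atp5g3 (636 ± 121 CPM per kb), Atp5b, the catalytic beta subunit (580.3 ± 29.2), and Cox6c (554 ± 77.5). In WT brain RNA-seq Cox8a (267 ± 54.7), Cox6c (260.4 ± 60.3) and Cox4i1 (255 ± 31.4) were highest and within 1 SD of each other. Cox7b2, Cox8c and Cox4i2 were lowest in kidney, and Cox8c, Cox7b2 and Cox8b in brain.

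Kidney was then compared with brain within each genotype. In WT Ribo-seq 37 of the 40 members tested were higher in kidney and 1 was lower (edgeR quasi-likelihood test, Benjamini-Hochberg adjusted p under 0.05 over all transcripts), with a median log2 fold change of 0.86. Over all transcripts 35.0% were called higher in kidney and 35.8% lower, and over genes, 1 transcript each, 37.5% and 38.1%. The lower one was Cox6a2, which entered the test through its brain counts alone, so that its call is no support for a difference. The other 2 were Cox7a2l, a Cox7a relative of supercomplexes (-0.03 ± 0.17, log2 ± SE), and Atp5s (0.04 ± 0.20), whose differences did not pass. All 8 complex III members, all 5 of the F1 head, all 3 c-ring genes and all 8 of the stalk and membrane part rose in kidney. The role medians were 1.09 for complex III, 1.20 for F1, 0.93 for the c ring, 0.82 for the stalk and membrane part and 0.77 for complex IV. The kidney excess was not particular to these complexes. In the same test 34 of 36 nuclear complex I subunits were called higher and 0 lower, with a median of 0.91. Of 78 mitochondrial ribosomal proteins 70 were called higher and 0 lower, with a median of 0.94. In KO Ribo-seq 37 of 42 members were higher and 1 lower, with a median of 0.86. The shares were 38.1% and 38.2% of all transcripts, and 40.6% and 40.3% of genes. The lower member was again Cox6a2, with 2, 5 and 5 counts in KO kidney. It entered this test through its brain counts alone too, so that the call is no support for a difference.

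The largest upward tissue differences in footprints belonged to Cox7a1, Uqcrfs1 and Atp5d. Cox7a1 footprints stood at 4.91, 5.58 and 5.01 CPM in WT kidney and 0.627, 1.37 and 0.638 CPM in WT brain. The groups did not overlap (log2 fold change 2.79 ± 0.27 (SE), adjusted p = 3.91e-07). Uqcrfs1, the Rieske iron-sulfur protein of complex III, stood at 172, 178 and 199 CPM in kidney and 61.2, 61.8 and 59.1 CPM in brain (log2 fold change 1.68 ± 0.13 (SE), adjusted p = 4.62e-08). Atp5d, the delta subunit of the F1 head, stood at 138, 146 and 159 CPM and 60.0, 68.9 and 60.8 CPM (log2 fold change 1.31 ± 0.13 (SE), adjusted p = 7.66e-07). For both genes every kidney library lay above every brain library. In KO mice the differences of the 3 genes were 2.71, 1.68 and 1.26 on the log2 scale.

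**Figure D1:**
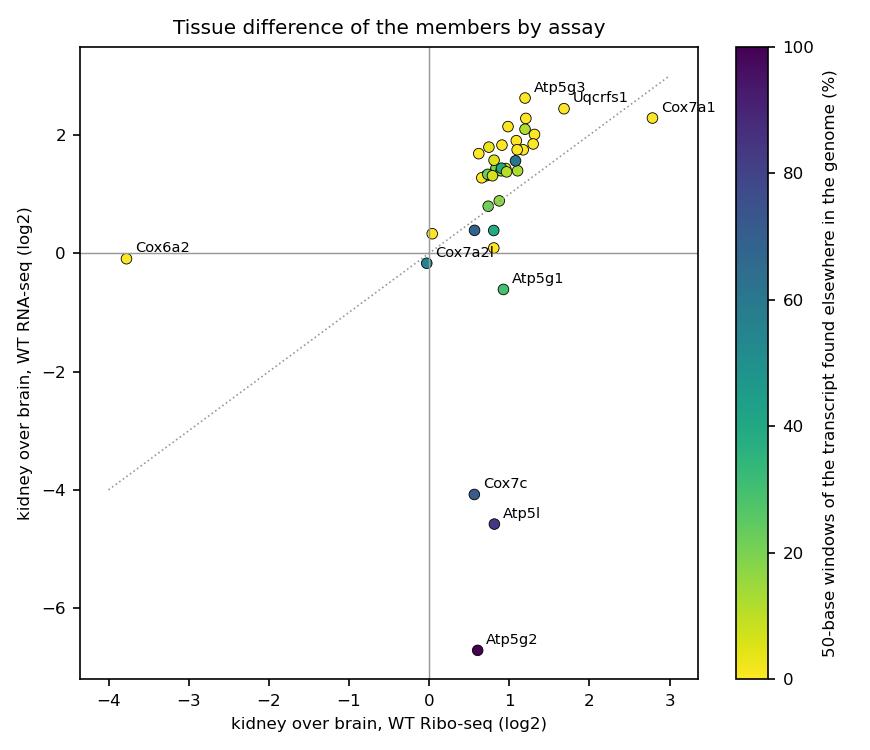
Kidney-to-brain log2 fold changes of the members in WT Ribo-seq (horizontal axis) and WT RNA-seq (vertical axis), 1 point per member, coloured by the percentage of 50-base windows of the transcript that occur elsewhere in the genome, with the dotted line marking equal values. Most members lie above 0 on both axes, Cox6a2 is low in footprints only, and Atp5g2, Atp5l and Cox7c are low in RNA only.

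In WT RNA-seq 30 of 42 members were higher in kidney and 4 lower, with a median log2 fold change of 1.39. Of all transcripts 28.3% were called higher and 35.8% lower, and of genes 38.2% and 34.7%. The nuclear complex I subunits had 33 of 36 called higher and 2 lower. The mitochondrial ribosomal proteins had 67 of 78 called higher and 3 lower. Among the 20 tested members with under 5% repeated windows 15 were called higher and 0 lower (median 1.77). Among the 16 with at least 5% and under 50% repeated windows 14 were called higher and 1 lower (median 1.38). Among the 6 with at least 50%, 1 was called higher and 3 lower (median -2.12), while the same 6 had a median of 0.59 in Ribo-seq. The thresholds of 5% and 50% were chosen after the values were seen. The largest differences upward were those of Atp5g3, Uqcrfs1 and Cox7a1. Atp5g3 mRNA stood at 449.9, 542 and 369 CPM in kidney and 90.6, 98.1 and 74.6 CPM in brain (log2 fold change 2.62 ± 0.25 (SE), adjusted p = 7.86e-06). Uqcrfs1 mRNA stood at 154, 154 and 151 CPM and 35.1, 34.5 and 30.5 CPM (log2 fold change 2.44 ± 0.18 (SE), adjusted p = 1.05e-06). The tissues did not overlap for either gene. Cox7a1 mRNA stood at 7.07, 8.06 and 4.71 CPM and 2.02, 1.47 and 1.38 CPM (log2 fold change 2.28 ± 0.30 (SE), adjusted p = 8.56e-05). The 3 largest differences downward were those of the repeated genes Atp5g2 (-6.71 ± 0.38), with 9, 22 and 7 counts in WT kidney, Atp5l (-4.58 ± 0.27) and Cox7c (-4.08 ± 0.24).

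The fourth gene called lower in kidney mRNA was Atp5g1, a c-ring gene whose whole coding sequence is repeated, with 30.4, 36.4 and 31.5 CPM in kidney and 60.4, 66.8 and 50.9 CPM in brain (log2 fold change -0.61 ± 0.19 (SE), adjusted p = 0.0184). That call was lost without WT brain RNA-seq replicate 2 (adjusted p = 0.0565) and without WT kidney RNA-seq replicate 1 (adjusted p = 0.0784). In KO RNA-seq 33 of 42 members were higher in kidney and 3 lower. The shares were 28.5% and 36.0% of all transcripts, and 39.6% and 34.2% of genes. Cox7a1 (3.11), Atp5g3 (3.10) and Atp5e (2.82) had the largest log2 differences upward there, and Atp5g2 (-5.84), Cox7c (-3.56) and Atp5l (-3.40) downward. Without both KO kidney libraries that stood apart the KO kidney group holds a single library, so that no count is given.

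Whether footprints differed between tissues beyond mRNA was tested as the assay-by-tissue term, here called translation efficiency (TE). In WT 10 of 42 members passed, 4 higher and 6 lower in kidney. The shares were 13.9% and 5.99% of all transcripts, and 12.4% and 8.98% of genes. The 4 higher were Atp5g2, Atp5l, Cox7c and Atp5g1, whose log2 differences of 7.48, 5.56, 4.81 and 1.71 stand beside the low kidney mRNA counts described above. The 6 lower were Cox6a2 (-3.54 ± 0.59), whose kidney footprints lay under the minimum count of 10 in every library, Atp5g3 (-1.25 ± 0.29), Atp5b (-0.99 ± 0.21), Atp5a1, the alpha subunit of F1 (-0.90 ± 0.21), Cox5a, a matrix-side complex IV subunit (-0.88 ± 0.25), and Atp5c1, the gamma subunit (-0.73 ± 0.20). The calls of Atp5c1 (adjusted p = 0.0619) and Cox5a (adjusted p = 0.0768) were lost without WT kidney Ribo-seq replicate 1, and that of Cox5a (adjusted p = 0.0532) also without WT kidney RNA-seq replicate 1. Without WT brain Ribo-seq replicate 1 the count was 17 of 42, beside 20.9% of genes, and DESeq2 gave 17, beside 28.5% of genes.

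The Cox6a pair differed between tissues in its shares of both footprints and mRNA. Cox6a1, the common isoform, held 96.4% of Cox6a footprints per kilobase in WT brain and 99.9% in WT kidney. Cox6a2, the heart and muscle isoform, held 3.36%, 3.47% and 4.03% of the pair in the WT brain Ribo-seq libraries and 0.0774%, 0.0618% and 0.258% in the kidney ones. Its footprints numbered 35, 21 and 46 counts in WT brain and 2, 1 and 4 in WT kidney, or 1.69, 2.21 and 2.10 CPM against 0.0773, 0.0673 and 0.295 CPM. Every brain library exceeded every kidney library. The 3 kidney counts lay under the minimum of 10, so that the gene was tested only through brain and no test is given, and the pooled brain-to-kidney ratio was 15.2, with an exact 95% interval of 7.10 to 38.7 that covers counting error only. In mRNA per kilobase Cox6a2 held 1.36%, 1.54% and 1.36% of the pair in WT brain and 0.503%, 0.480% and 0.580% in WT kidney, and these shares did not overlap either. The level of Cox6a2 mRNA itself overlapped between the tissues, at 1.78, 2.26 and 1.38 CPM in brain and 1.42, 1.46 and 1.42 CPM in kidney (log2 fold change -0.09 ± 0.31 (SE), adjusted p = 0.806). Over 10.3% of its length the transcript lies opposite exons of Itgad, and how the counting treated strand is not given in the sources used here. The 4 parvalbumin interneuron markers summed to 111 to 142 CPM in WT brain Ribo-seq and 8.47 to 10.5 CPM in WT kidney Ribo-seq, and the 8 striated muscle markers to 26.9 to 42.9 and 20.6 to 28.7 CPM. In RNA-seq the striated muscle markers summed to 2.71 to 4.67 CPM in WT brain and 0.897 to 2.64 CPM in WT kidney. The part of either list in the Cox6a2 difference was not tested.

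The Cox7a1 difference between tissues ran the other way. Cox7a2, the common form, held 87.6% ± 0.607 (SD, n = 3) of the family's footprints per kilobase in WT kidney and 84.3% ± 1.47 in WT brain. Cox7a1, the heart and muscle form, held 3.95% ± 0.628 and 1.01% ± 0.321. Cox7a2l held 8.42% ± 1.09 and 14.7% ± 1.79. For Cox7a1 the WT kidney shares were all above the WT brain shares, and for Cox7a2l all were below. In mRNA Cox7a2l made up 37.3% ± 1.62 of the family per kilobase in WT brain and 14.6% ± 1.38 in WT kidney. Its transcript is among the 6 repeated over at least 50% of their windows. Its log2 difference in mRNA itself was -0.17 ± 0.22, against 1.57 ± 0.22 for Cox7a2. The 8 striated muscle markers, the list set for Cox7a1, summed to 20.6 to 28.7 CPM in WT kidney Ribo-seq and 26.9 to 42.9 CPM in brain. These ranges overlapped and did not follow the Cox7a1 difference in direction. In RNA-seq the same markers summed to 0.897 to 2.64 CPM in WT kidney and 2.71 to 4.67 CPM in WT brain. Why the sums were higher in footprints than in mRNA was not tested. The 8 pericyte and smooth muscle markers, a list set for Cox4i2, summed to 88.3 to 130 CPM in WT kidney Ribo-seq and 38.8 to 50.6 CPM in brain. The part of either list in the Cox7a1 difference was not tested.

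In the other families the common form held nearly all footprints in both tissues. Cox4i1 held 99.8% ± 0.0522 of Cox4i in kidney and 99.6% ± 0.0932 in brain, and Cox4i2, the isoform known from lung and oxygen-sensing cells, stood at 0.386, 0.538 and 0.368 CPM and 0.530, 0.421 and 0.501 CPM. These ranges overlapped. Cox4i2 mRNA stood at 0.392, 0.254 and 0.133 CPM in kidney and 0.827, 0.675 and 0.604 CPM in brain, a difference that did not pass (log2 fold change -1.17 ± 0.47 (SE), adjusted p = 0.0521). The 8 pericyte and smooth muscle markers ran the other way, at 94.5 to 117 CPM in WT kidney RNA-seq and 42.3 to 56.0 CPM in brain. Their part in the Cox4i2 values was not tested. Cox6b1 held 98.8% ± 0.385 and 98.6% ± 0.454 of Cox6b. Cox6b2, the testis form, stood at 1.74, 1.88 and 1.03 CPM in kidney and 0.916, 1.58 and 0.638 CPM in brain footprints (log2 fold change 0.81 ± 0.34 (SE), adjusted p = 0.0486), a call that was lost under 7 alternatives.

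Cox8a held 99.3% ± 0.628 and 98.8% ± 0.586 of Cox8 footprints. Cox8b, the muscle and brown fat form, gave 29, 2 and 4 counts in WT kidney and 9, 2 and 4 in WT brain Ribo-seq, with the kidney value led by replicate 1. The 4 brown fat markers, Cox8b among them, summed to 2.15 to 5.37 CPM in WT kidney Ribo-seq and 2.55 to 3.71 CPM in WT brain Ribo-seq. Cox7b2 and Cox8c are testis genes. Cox7b2 had 0 counts in all 18 kidney libraries, which in the 6 Ribo-seq libraries allows up to 0.0204 CPM and in the 6 RNA-seq libraries up to 0.0103 CPM, and 75 counts over the 6 brain RNA-seq libraries and 22 over the 6 brain Ribo-seq libraries. Cox8c had 1 count over the brain RNA-seq libraries and 28 over the brain Ribo-seq libraries. The 5 germ cell markers summed to 0.0109 to 0.121 CPM in brain RNA-seq and 0.92 to 20.4 CPM in brain Ribo-seq, and their part in the Cox8c counts was not tested.

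The 3 c-ring genes encode the same mature protein behind different import signals. In WT kidney footprints Atp5g3 held 62.1% ± 2.86, Atp5g1 24.8% ± 1.11 and Atp5g2 13.1% ± 1.84 of the family per kilobase. In WT brain the shares were 55.6% ± 1.69, 26.7% ± 1.14 and 17.7% ± 1.61, in the same order. In kidney disomes Atp5g3 held 73.8% ± 0.994, above every WT Ribo-seq library. Shares of c-ring mRNA are not compared, because the kidney mRNA of Atp5g2 and Atp5g1 is under the limit given above and the Atp5g1 transcript used is 4715 bases long while a 691-base transcript carried 1343 of its 1475 counts in WT kidney RNA-seq replicate 1.

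**Figure D2:**
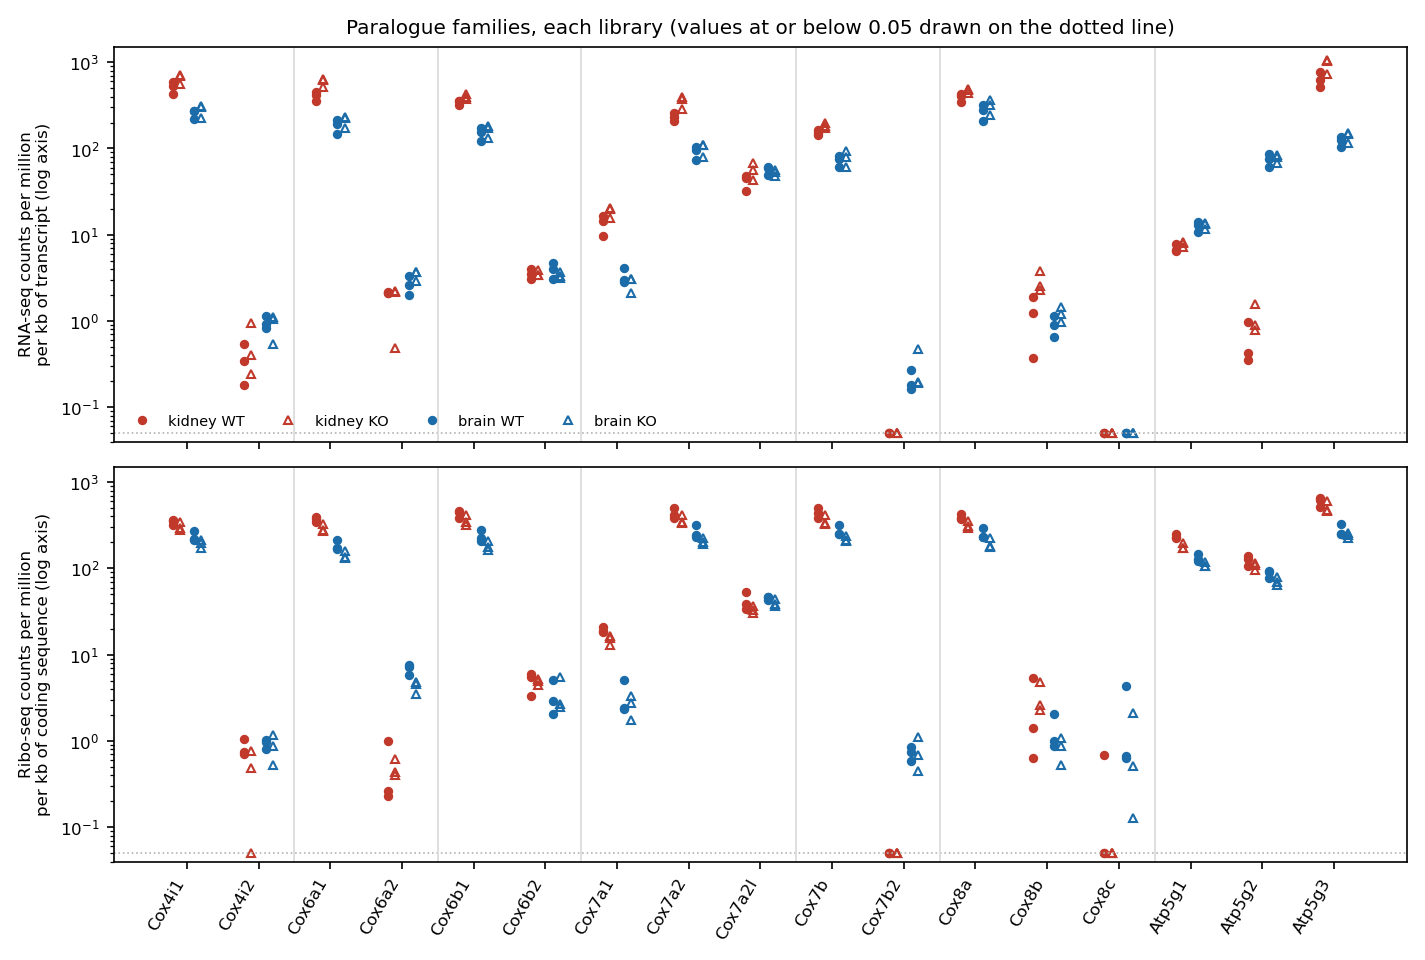
CPM per kilobase of transcript (RNA-seq, upper panel) or of coding sequence (Ribo-seq, lower panel) of the paralogue families in every library, on log axes, by tissue (red kidney, blue brain) and genotype (filled WT, open KO), with values at or below 0.05 drawn on the dotted line. Cox6a2 footprints are higher in brain than in kidney, Cox7a1 footprints are higher in kidney than in brain, and Atp5g2 is low in kidney RNA-seq but not in kidney Ribo-seq.

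KO was compared with WT within each tissue and assay. No member passed the test in any of these comparisons, and the values below are given with that limit. In kidney RNA-seq 0 of 42 members were called, as were 0.00992% of all transcripts. At an unadjusted p under 0.05, 26 were higher and 0 lower, beside 10.9% and 3.25% of genes. Of the 42 estimates 40 were above 0, beside 61.3% of genes, and their median log2 fold change was 0.53, beside 0.10 over 13839 genes. The 3 KO libraries exceeded all WT libraries in 15 of 42 members and lay below them in 1, against 7.46% and 12.7% of genes. With library size as the only scaling the median over all genes was -0.06 and that of the members 0.36, with 36 above 0. Without KO replicate 1, which leaves the KO libraries that stood apart, 20 members were called higher, beside 8.39% of genes. Without those 2 libraries the KO group holds a single library, assumed to vary like the WT ones, so that few p-values could pass, and the median was 0.23. DESeq2 called 1, beside 0.477% of genes.

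The kidney mRNA estimates ranged from -0.22 for Cox6a2 to 1.43 for Cox8b. Cox8b stood at 0.680, 0.449 and 0.133 CPM in WT and 1.36, 0.923 and 0.818 CPM in KO (log2 fold change 1.43 ± 0.59 (SE), adjusted p = 0.292). Atp5l stood at 2.52, 2.73 and 1.73 CPM in WT and 2.96, 7.30 and 5.40 CPM in KO (log2 fold change 1.34 ± 0.39 (SE), adjusted p = 0.292). In both genes all 3 KO libraries lay above WT, and in Atp5l KO replicate 1 lay nearer to WT than to KO replicates 2 and 3. Atp5e stood at 126, 157 and 76.7 CPM in WT and 136, 326 and 286 CPM in KO (log2 fold change 1.24 ± 0.40 (SE), adjusted p = 0.292), with KO replicate 1 inside the WT range. Uqcrc2, a core protein of complex III, stood at 151, 140.2 and 171 CPM and 138, 123 and 130.0 CPM (log2 fold change -0.08 ± 0.12 (SE), adjusted p = 0.732), and KO lay below WT in all 3 libraries. Cox6a2 stood at 1.42, 1.46 and 1.42 CPM and 1.47, 1.52 and 0.332 CPM, of which KO replicate 3 alone was low (log2 fold change -0.22 ± 0.52 (SE), adjusted p = 0.816). By role, the median was 0.73 for the c ring, 0.59 for complex IV, 0.57 for the stalk and membrane part, 0.48 for complex III and 0.32 for F1.

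In kidney Ribo-seq 0 of 40 members were called, against 7.76% of all transcripts, which is a comparison in which 1308 of 13406 genes passed. DESeq2 called none as well, and 7 members, all lower, had an unadjusted p under 0.05 by both tools, beside 13.6% of genes lower at that p by edgeR. That count was 23 with library size alone and 0 to 21 when each library was left out, the 21 without KO replicate 1. No share of genes is given beside these alternatives, so that they show only how far the count moved. Estimates were below 0 in 35 of 40, beside 52.5% of genes, with a median of -0.19 beside -0.02 over all genes. Every KO library lay below every WT library in 17 of 42 members, beside 20.2% of genes, and above in 0, beside 8.77%. Without KO replicate 1, 1 member was called lower (median -0.30), beside 2.90% of genes, and with library size as the only scaling 3 were called lower, beside 4.42%. The 2 deeper KO libraries hold the lower member shares given above.

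Atp5e had the lowest estimate. Its footprints stood at 70.0, 76.6 and 89.3 CPM in WT and 66.2, 53.1 and 52.0 CPM in KO, with no overlap (log2 fold change -0.39 ± 0.15 (SE), adjusted p = 0.121). Cox7a1 stood at 4.91, 5.58 and 5.01 CPM in WT and 4.44, 4.12 and 3.43 CPM in KO (log2 fold change -0.33 ± 0.16 (SE), adjusted p = 0.204), also without overlap. At the other end Cox8b stood at 1.12, 0.135 and 0.295 CPM and 0.544, 1.01 and 0.482 CPM, which overlapped (log2 fold change 0.28 ± 0.50 (SE), adjusted p = 0.764). Atp5a1 stood at 570.1, 664 and 639 CPM and 724, 599 and 593 CPM (log2 fold change 0.11 ± 0.16 (SE), adjusted p = 0.713), with KO replicate 1 above WT and replicates 2 and 3 inside its range. The complex III core proteins Uqcrc1 and Uqcrc2 were also above 0, at 0.08 and 0.08. All 8 stalk and membrane members and all 3 c-ring genes had estimates below 0, with medians of -0.20 and -0.15.

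**Figure D3:**
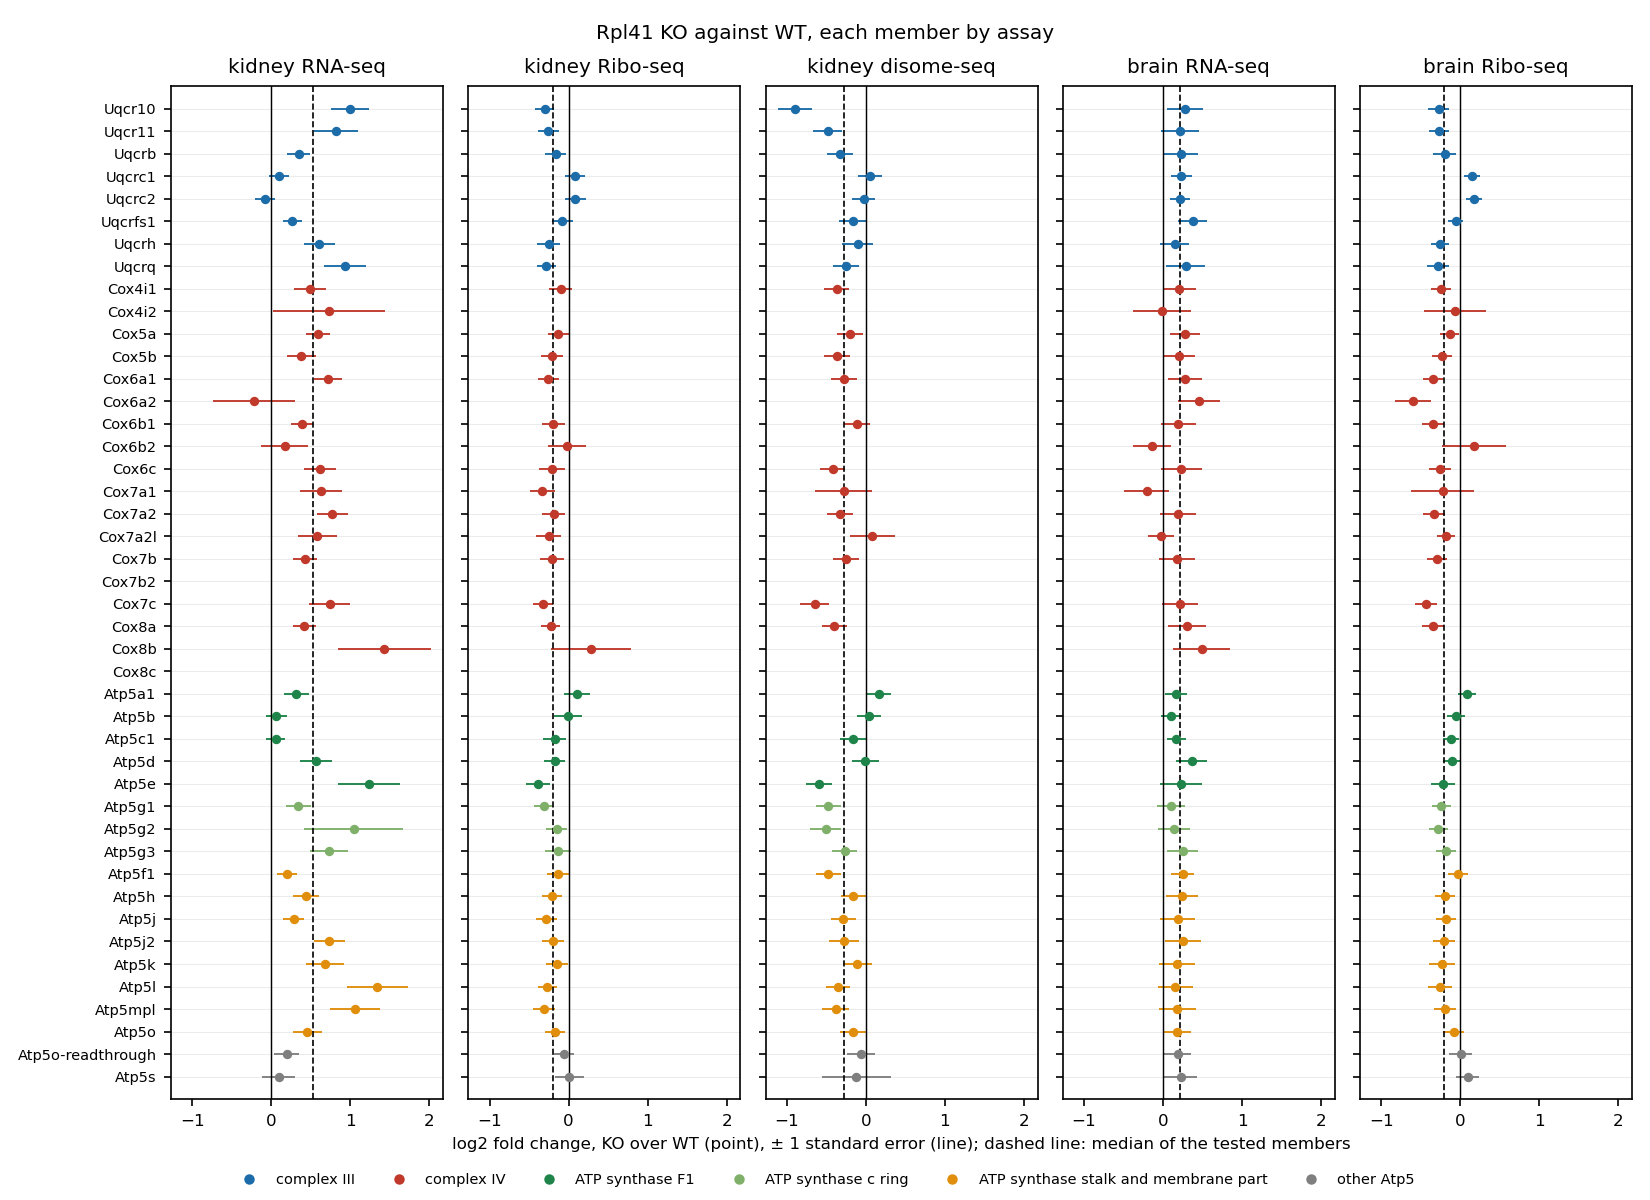
KO-to-WT log2 fold change of each member (point) with 1 SE (line), coloured by role, in kidney and brain RNA-seq and Ribo-seq and in kidney disome-seq, where the dashed line is the median of the tested members and untested members are blank. None of the members passed the adjusted threshold, RNA-seq estimates lie mostly above 0 and footprint estimates mostly below 0.

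The 2 kidney assays had median estimates on opposite sides of 0. In 35 of 40 members the mRNA estimate was above 0 and the footprint estimate below. The test of this difference, the assay-by-genotype term or kidney TE, called 0 of 42 members and 0% of all transcripts, with 29 members lower at an unadjusted p under 0.05, beside 11.5% of genes, 40 of 42 below 0, beside 58.9% of genes, and a median of -0.69 beside -0.12 over 15379 genes. Atp5e (-1.61 ± 0.48, adjusted p = 0.139) and Atp5l (-1.59 ± 0.41, adjusted p = 0.12) were lowest, and Cox6a2 (0.26 ± 0.98) and Uqcrc2 (0.15 ± 0.17) highest. DESeq2 called 10 lower, beside 3.13% of genes, a table with 1 transcript per gene 4, beside 0.904%, and the fit without KO kidney RNA-seq replicate 1 called 21, beside 6.74%. Without both KO kidney RNA-seq libraries that stood apart, which leaves a single KO RNA-seq library, the median was -0.46 and the absence of calls says little. Same-numbered kidney RNA-seq and Ribo-seq libraries deviated together, and with the replicate as a block the count was also 0. The paper, which tested TE with RiboDiff, reported significant changes for many transcripts of both kidney and brain. RiboDiff was not run here.

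Most members encode short proteins, and genes of short proteins as a whole shared these shifts. At a split of 150 residues, chosen after the values were seen, the 27 shorter members tested in kidney Ribo-seq had a median of -0.23 with 1 above 0. All 1026 genes of that length had a median of -0.26 with 128 above 0. The 13 longer members had a median of -0.08 with 4 above 0, beside 0.004 over 12380 longer genes with 6246 above 0. In kidney RNA-seq the medians were 0.65 for the 28 shorter members and 0.34 for 1016 shorter genes, and 0.23 for the 14 longer members and 0.09 for 12823 longer genes. In kidney TE the shorter members had a median of -0.86 and all shorter genes -0.60, the longer ones -0.29 and -0.09. In brain Ribo-seq the shorter members stood at -0.25 and shorter genes at -0.22, the longer ones at -0.06 and -0.01. The nuclear complex I subunits had medians of 0.56 in kidney RNA-seq and -0.26 in kidney Ribo-seq, where 1 of 36 was called higher and 6 lower. The mitochondrial ribosomal proteins had medians of 0.37 and -0.20, with 7 of 78 called lower in kidney Ribo-seq. Of all genes in kidney Ribo-seq, 5.96% were called higher and 3.80% lower. None of these values were tested against the members.

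**Figure D4:**
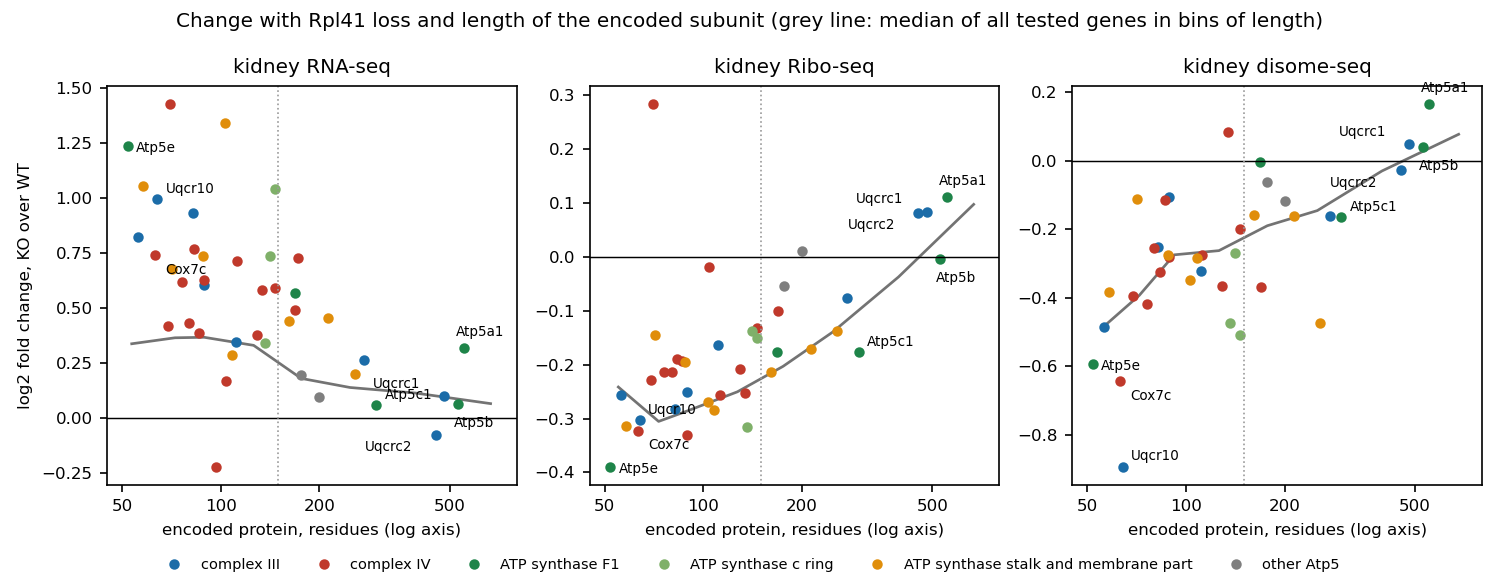
KO-to-WT log2 fold change of each member against the residues of its protein on a log axis in kidney RNA-seq, Ribo-seq and disome-seq, coloured by role, with a grey line for the median of all tested genes in bins of length and a dotted line at 150 residues. At the short end of the footprint panels most members lie on the same side of 0 as the median of all genes of their length.

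Disome footprints in kidney gave 0 called of 38 members, against 0.201% of all transcripts. DESeq2 called 0 too. By edgeR 13 members, all lower, had an unadjusted p under 0.05, beside 5.17% of genes. DESeq2 gave 8 and leaving out KO replicate 2 gave 4, with no share of genes given beside these. Estimates were below 0 in 34 of 38, beside 50.2% of genes, with a median of -0.27 beside -0.002 over 7752 genes. Every KO library lay below every WT library in 19 of 39 members, against 9.78% of genes, and above in 0, against 5.28%. The shorter members had a median of -0.32 and all 552 shorter genes -0.28. Uqcr10, a short complex III subunit, had the largest difference, at 30.8, 35.4 and 42.4 CPM in WT and 15.9, 22.6 and 16.0 CPM in KO (log2 fold change -0.89 ± 0.22 (SE), adjusted p = 0.103). Its KO libraries all lay below WT. Cox7c stood at 64.3, 59.0 and 70.4 CPM in WT and 46.5, 32.4 and 38.7 CPM in KO (log2 fold change -0.64 ± 0.18 (SE), adjusted p = 0.173). Atp5e stood at 121, 112 and 128 CPM and 86.0, 67.8 and 74.9 CPM (log2 fold change -0.59 ± 0.16 (SE), adjusted p = 0.151). Neither overlapped. Atp5a1 had the highest estimate, at 708, 631 and 703 CPM and 793, 712 and 697 CPM (log2 fold change 0.17 ± 0.16 (SE), adjusted p = 0.748), followed by Cox7a2l (0.08 ± 0.28). The estimates were below 0 in both kidney Ribo-seq and disome-seq for 32 of 38 members.

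Ratios of subunits within a library do not depend on its size. The F1 head holds several alpha and beta subunits for each gamma and epsilon, and footprints per kilobase of coding sequence were set against gamma. In kidney Ribo-seq alpha over gamma was 1.57, 1.67 and 1.43 in WT and 1.91, 1.92 and 1.83 in KO. Epsilon over gamma was 2.05, 2.05 and 2.12 in WT and 1.85, 1.81 and 1.71 in KO. Beta over gamma was 1.86, 2.02 and 1.77 and 2.22, 2.08 and 2.02. These were the 3 of 9 ratios in which the genotypes did not overlap, KO being higher for alpha and beta and lower for epsilon. Of the 9 ratios 7 share gamma as the denominator, and no share over other ratios was computed to read the count against. An exact permutation test of 3 against 3 libraries cannot go below p = 0.1. In disome-seq 3 of 9 did not overlap, with epsilon over gamma at 3.73, 3.94 and 3.68 in WT and 2.68, 2.94 and 2.82 in KO. Alpha over gamma was 2.05, 2.09 and 1.90 in WT and 2.32, 2.91 and 2.47 in KO. In brain Ribo-seq only alpha over gamma did not overlap, at 1.63, 1.58 and 1.41 in WT and 1.69, 1.82 and 1.81 in KO. The summed c-ring genes over gamma were 3.98, 3.95 and 3.88 in WT kidney Ribo-seq and 3.99, 3.94 and 3.83 in KO, which overlapped.

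In brain RNA-seq 0 of 42 members were called, beside 0.0134% of all transcripts. At an unadjusted p under 0.05 there were 0 by edgeR, beside 4.97% of genes, and 0 by DESeq2. Without KO brain RNA-seq replicate 1 that count was 20, beside 19.4% of genes, and the median ranged from 0.07 to 0.37 when each library was left out. The median over all libraries was 0.21 beside 0.09 over 15680 genes, with 38 of 42 above 0, beside 68.4% of genes, and in no member did the genotypes separate, against 7.86% of genes separated upward and 5.59% downward. Cox8b, at 0.413, 0.327 and 0.235 CPM in WT and 0.347, 0.518 and 0.438 CPM in KO (log2 fold change 0.49 ± 0.36 (SE), adjusted p = 0.898), and Cox6a2, at 1.78, 2.26 and 1.38 CPM and 1.98, 2.53 and 2.52 CPM (log2 fold change 0.45 ± 0.26 (SE), adjusted p = 0.898), had the highest estimates. Cox7a1 (-0.21 ± 0.28) and Cox6b2 (-0.14 ± 0.24) had the lowest.

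In brain Ribo-seq 0 of 41 members were called, beside 0.0345% of all transcripts. The unadjusted p was under 0.05 for 9 members by edgeR, all lower, beside 7.10% of genes, and for 10 by DESeq2, which called 0. Leaving out 1 library moved the 9 to between 1, without KO replicate 2, and 17, without WT replicate 1. No share of genes is given beside these alternatives, so that they show only how far the count moved. The median was -0.21 beside -0.03 over 14429 genes. Every KO library lay below every WT library in 11 of 44 members, against 11.3% of genes, and above in 2, against 7.46%. Cox6a2 had the lowest estimate, at 1.69, 2.21 and 2.10 CPM in WT and 1.01, 1.42 and 1.33 CPM in KO (log2 fold change -0.60 ± 0.23 (SE), adjusted p = 0.322). Cox7c stood at 50.5, 67.8 and 48.6 CPM in WT and 45.2, 36.9 and 39.6 CPM in KO (log2 fold change -0.43 ± 0.15 (SE), adjusted p = 0.276). Both genes lay lower in all KO libraries. The highest estimates were those of Cox6b2 (0.18 ± 0.40) and Uqcrc2. Uqcrc2 stood at 103, 106 and 103 CPM in WT and 110.1, 118 and 120.1 CPM in KO (log2 fold change 0.17 ± 0.10 (SE), adjusted p = 0.486), with KO above WT in all 3 libraries. The 4 haemoglobin markers summed to 644 to 1787 CPM in WT brain Ribo-seq and 338 to 438 CPM in KO, and to 768 to 2382 CPM and 403 to 732 CPM in brain RNA-seq. The part of blood in the brain genotype differences was not tested.

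Brain TE gave 0 called of 43 members and 0% of all transcripts, with a median of -0.39 beside -0.09 over 16632 genes. At an unadjusted p under 0.05 there was 1 member by both edgeR and DESeq2, beside 5.28% of genes by edgeR. That count was 6 with library size alone and 27 without KO brain RNA-seq replicate 1. No share of genes is given beside the 6 and the 27, so that they show only how far the count moved. The median ranged from -0.56 to -0.22 when each library was left out. Cox8b (-1.22 ± 0.67) and Cox6a2 (-1.02 ± 0.38) were lowest, and Cox6b2 (0.35 ± 0.50) and Cox7a1 (0.02 ± 0.52) highest. Whether the KO difference itself differed between tissues was tested by an interaction of tissue and genotype. In RNA-seq 0 of 42 members passed, beside 0.00108% of all transcripts. At an unadjusted p under 0.05 there was 1 member by either tool, beside 7.93% of genes by edgeR. Without KO kidney RNA-seq replicate 1, 1 member was called, with no share of genes given beside it. In Ribo-seq 0 of 42 passed, beside 0.0767% of all transcripts. At an unadjusted p under 0.05 there were 0 by either tool, beside 9.39% of genes by edgeR.

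Isoform shares were compared between genotypes by exact permutation tests (two-sided) on the 3 libraries of each. Of 78 share comparisons, in which the shares of a pair mirror each other, 13 reached the smallest possible p of 0.1, all with an adjusted p of 0.578. The Cox6a2 share of Cox6a footprints in brain was 3.36%, 3.47% and 4.03% in WT and 2.13%, 3.47% and 3.35% in KO (exact p = 0.2). The Atp5g1 share of c-ring footprints in kidney was 26.1%, 24.1% and 24.2% in WT and 21.4%, 23.4% and 23.2% in KO, without overlap (exact p = 0.1).

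The 39 assembly, copper delivery and regulatory genes of the pathway, a list of genes outside the rule, gave calls in kidney Ribo-seq only among the KO-to-WT comparisons, with 2 higher and 3 lower of 39 and a median of -0.18, where 5.96% of all genes were called higher and 3.80% lower. Lrpprc, which binds mitochondrial mRNAs, rose (log2 fold change 0.68 ± 0.11 (SE), adjusted p = 0.00817), as did Ppargc1a, a transcriptional coactivator of mitochondrial genes (log2 fold change 0.44 ± 0.11 (SE), adjusted p = 0.0299). Cox14 (log2 fold change -0.68 ± 0.13 (SE), adjusted p = 0.0113), Coa3 (log2 fold change -0.44 ± 0.10 (SE), adjusted p = 0.0223) and Cox16 (log2 fold change -0.40 ± 0.11 (SE), adjusted p = 0.0442), all complex IV assembly factors, fell. In WT kidney against brain Ribo-seq 27 of the 39 were higher and 3 lower. The shares were 35.0% and 35.8% of all transcripts, and 37.5% and 38.1% of genes. The 8 subunits that the symbol rule leaves out (Cyc1, Ndufa4 and 6 encoded by mitochondrial DNA) were all called higher in WT kidney than in WT brain Ribo-seq, with a median of 1.13 and beside the same 35.0% of all transcripts, and 0 were called between KO and WT in any assay.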

How the data were processed

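The read counts per transcript were deposited by the authors in 1 table of 142604 GENCODE mouse transcripts and 30 columns, 1 per library. Per the submitters' processing notes cutadapt, STAR and featureCounts (Subread) were used, with mm10 as the mouse build, and versions are not given in the sources used here. The counts show that a read lying in several transcripts of a gene was counted for each, so that isoforms repeat each other. In the study's methods reads with several positions were permitted at alignment. The strand setting, and how such reads were counted in each kind of library, are not given in the sources used here. Another deposited count table, of human HEK293T libraries (44 samples, 28 columns), was not analysed here.

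Transcripts were matched to GENCODE M21 (141374 matched). The members, gene lists and tests were chosen with earlier results of these data known. The genes named were all members of the Cox4i, Cox6a, Cox6b, Cox7a, Cox7b, Cox8 and Atp5g families, the members called and the 2 with the largest rise and 2 with the largest fall among estimates in each KO-to-WT comparison, the 3 largest differences each way between tissues, and the 3 highest and 3 lowest members per length. Further members were named after their values were seen.

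All transcripts of the libraries compared were fitted with edgeR 4.0.16 in R 4.3.3 (filterByExpr, minimum count 10, TMM, quasi-likelihood F-test, Benjamini-Hochberg adjustment over all transcripts tested, threshold 0.05). TE was the assay interaction term. The SE was derived from the fold change and the F statistic. Alternatives were DESeq2 1.42.0, library size alone, other filters, 1 transcript per gene, a replicate block and leaving out each library. Leaving out both KO kidney RNA-seq libraries that stood apart was chosen after seeing the data. Windows of 28 and 50 bases were searched in GRCm38.p6 on both strands.

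Replicate numbers in the labels did not enter the main fits and were used only in the replicate block, an alternative. The block was taken as pairing libraries in the kidney TE, the WT tissue TE (within each tissue) and the KO tissue comparisons. There every same-numbered pair correlated above 0.1 in its deviations from the group means over 7373 genes (0.139 to 0.249 between kidney RNA-seq and Ribo-seq, 0.203 to 0.513 between WT brain RNA-seq and Ribo-seq). Replicate 2 of KO and WT, which are different animals, correlated at 0.530 in brain RNA-seq and 0.479 in kidney RNA-seq. Replicates 1 and 3 were negative there. The correlations therefore do not show shared animals. The pairing is an assumption, since labels name no shared animal, and p-values measure the spread between these libraries. Intervals and limits cover counting error only. The tests were tried on simulated data first, for KO against WT in kidney. Of simulated log2 changes of 1, 2 of 95 were recovered in RNA-seq and 62 of 97 in Ribo-seq. Of log2 changes of 2, 50 of 95 and 95 of 96 were recovered. An absent call in kidney RNA-seq therefore says little about changes of a log2 size of 1. Tables were handled with Python 3.11.15, pandas 2.3.3, numpy 2.4.6 and scipy 1.17.1, and plots drawn with matplotlib 3.10.9.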

Additional observations from a re-analysis of the deposited data

How the results depend on the processing

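The number of members called was recomputed for 14 comparisons. No share of genes is given beside the counts in this paragraph, so that they show only how far the counts moved. KO against WT in kidney RNA-seq went from 0 to 1 with DESeq2, and ranged from 0 to 20 when each library was left out, the 20 without KO replicate 1. In kidney Ribo-seq it went from 0 to 3 with library size alone and to 1 with no filter, and ranged from 0 to 1 when each library was left out. In disome-seq it went from 0 to 1 with no filter and stayed at 0 when each library was left out. With the replicate block it went to 2, although same-numbered disome-seq libraries did not all correlate above 0.1 in their deviations. Kidney TE went from 0 to 4 with 1 transcript per gene and to 10 with DESeq2, and ranged from 0 to 21 when each library was left out. WT TE between tissues went from 10 to 17 with DESeq2 and ranged from 8 to 17 when each library was left out. The tissue-by-genotype term in RNA-seq ranged from 0 to 1. The cause of these moves was not tested. When each library was left out, WT RNA-seq between tissues gave 33 to 36 calls, KO RNA-seq 34 to 37, WT Ribo-seq 37 to 38, KO Ribo-seq 38 to 39, and brain RNA-seq, brain Ribo-seq, brain TE and the tissue-by-genotype term in Ribo-seq between genotypes gave 0 throughout. With the replicate block KO RNA-seq between tissues gave 38 calls in place of 36 and KO Ribo-seq 39 in place of 38, kidney TE 0 in place of 0, and WT TE between tissues 10 in place of 10. The block moved no other count by over 1.5 times. No call changed direction under any alternative run. Between tissues, the members that lost their call under at least 1 alternative were Cox5b, Atp5h and Cox8a in KO RNA-seq, Cox6b2 in WT Ribo-seq, Atp5g1 and Cox8a in WT RNA-seq, and Atp5c1 and Cox5a in WT TE.

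The number of members at an unadjusted p under 0.05 ranged, when each library was left out, from 9 to 27 in kidney RNA-seq, 0 to 21 in kidney Ribo-seq, 4 to 14 in disome-seq, 19 to 31 in kidney TE, 0 to 20 in brain RNA-seq, 1 to 27 in brain TE and 1 to 17 in footprints of brain. No share of genes is given beside these ranges, so that they show only how far the counts moved. With 3 libraries a group, a p that misses the threshold does not show that members did not differ. Disome-seq, at 1187636 to 3018963 counts a library, left 6 of 44 members untested. Kidney mRNA values of members with copies elsewhere in the genome, and the TE values built on them, stand beside processed pseudogene shares of 0.072% to 0.094% in the same libraries, and the part of read placement was not tested.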
